A study of Homo sapiens with 3 samples.

Results

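The genes described here are 40 markers of neuroendocrine cells and factors tied to lineage plasticity, the ability of a tumour cell to take on another cell type. They were taken by symbol, as all probe sets of the array annotated to a member. The list was drawn up with earlier results of these data known, so its shares set beside those of all genes are descriptions and not independent evidence. A probe set is a group of short probes read together for 1 transcript. Of the 40 genes, 37 were read by at least 1 probe set annotated to that gene alone, among 19775 genes measured in this way. PCSK1, PCSK2 and NEUROD1 were not analysed here. Affymetrix HG-U133 Plus 2.0 arrays were used to measure 3 lines of human C4-2B cells, an established castration-resistant prostate carcinoma line derived from LNCaP. C4-2B MDVR cells were kept in 20 µM enzalutamide, which blocks the androgen receptor, and C4-2B AbiR cells in 10 µM abiraterone acetate, which inhibits an androgen-synthesizing enzyme. C4-2B parental cells received neither drug and, per the study's methods, were passaged in parallel. All 3 lines were grown in RPMI medium with serum. Each resistant line is a subline selected over time, so that drug and subline cannot be told apart, and the sources used here do not say whether either is a clone. Each line gave 1 array, so every difference below is between 2 arrays, with no replicate error and no test.

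Neuroendocrine cells store peptides in dense-core granules and release them by calcium-triggered fusion, with machinery that they share with neurons. In prostate cancer, androgen receptor-directed therapy can be followed by tumours that lose luminal features and gain such genes, and their granule proteins and neuron-specific enolase serve as tumour markers. A small set of transcription factors and a neuronal splicing factor switch these genes on, while the repressor REST keeps them off in other tissues.

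In both resistant lines a few granule, synaptic and enzyme genes stood far from the parental array. ENO2, neuron-specific enolase, was 6.96-fold higher in the MDVR array and 7.22-fold higher in the AbiR array than in parental. SERPINI1, the secreted protease inhibitor neuroserpin, was 5.74-fold higher in MDVR and 9.84-fold higher in AbiR. SYT4, a synaptotagmin of dense-core vesicles, was 21.2-fold higher in MDVR and 1.73-fold lower in AbiR. CADPS2, a priming factor for dense-core granules, was 13.9-fold lower in MDVR and 2.32-fold lower in AbiR. The classical markers CHGA, CHGB and SYP, and all 8 measured transcription factors, were within 2-fold of parental in both lines, as were 96.7% of all genes in MDVR and 98.1% in AbiR.

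The deposited values were log2 values centred for each probe set, so an array's value is relative to the others and carries no expression level. Whether a marker was expressed at all could therefore not be read, and the luminal identity of the line could be checked by differences only. In a bulk sample, fewer cells that express a gene and less RNA per cell cannot be told apart. A scale for technical noise came from 45 spiked bacterial control probe sets. Their largest absolute log2 difference from parental was 0.35 in MDVR and 0.20 in AbiR, and 0.34 between the resistant lines, with SDs of 0.13, 0.10 and 0.12 in the same order. Over the 24 members with 2 or more probe sets, the pooled SD between probe sets of 1 member was 0.22 in both comparisons with parental. Here ± gives that SD between probe sets, with n the number of probe sets.

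A difference of 2-fold, 1 on the log2 scale, was used as a description. In the MDVR array, 3 of 37 members (8.11%) were at least 2-fold higher than in parental, against a background of 1.65% of all genes. They were ENO2, SERPINI1 and SYT4. CADPS2 was the 1 member (2.70%) at least 2-fold lower, where 1.67% of all genes were. In the AbiR array, ENO2 and SERPINI1 (5.41%) were at least 2-fold higher, against 1.07% of all genes. CADPS2, MAP2 and RAB3B (8.11%) were at least 2-fold lower, against 0.804% of all genes. These shares rest on 1 to 3 genes each. A lower limit, the largest spiked control, was passed by 9 of 37 members (24.3%) in MDVR and by 12 (32.4%) in AbiR. The background was 23.0% of all genes in MDVR and 33.0% in AbiR, so that at this limit the members' shares were close to those of the whole array. The median member difference was 0.10 in MDVR and −0.044 in AbiR, beside 0.044 in MDVR and −0.011 in AbiR for all genes.

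**Figure D1:**
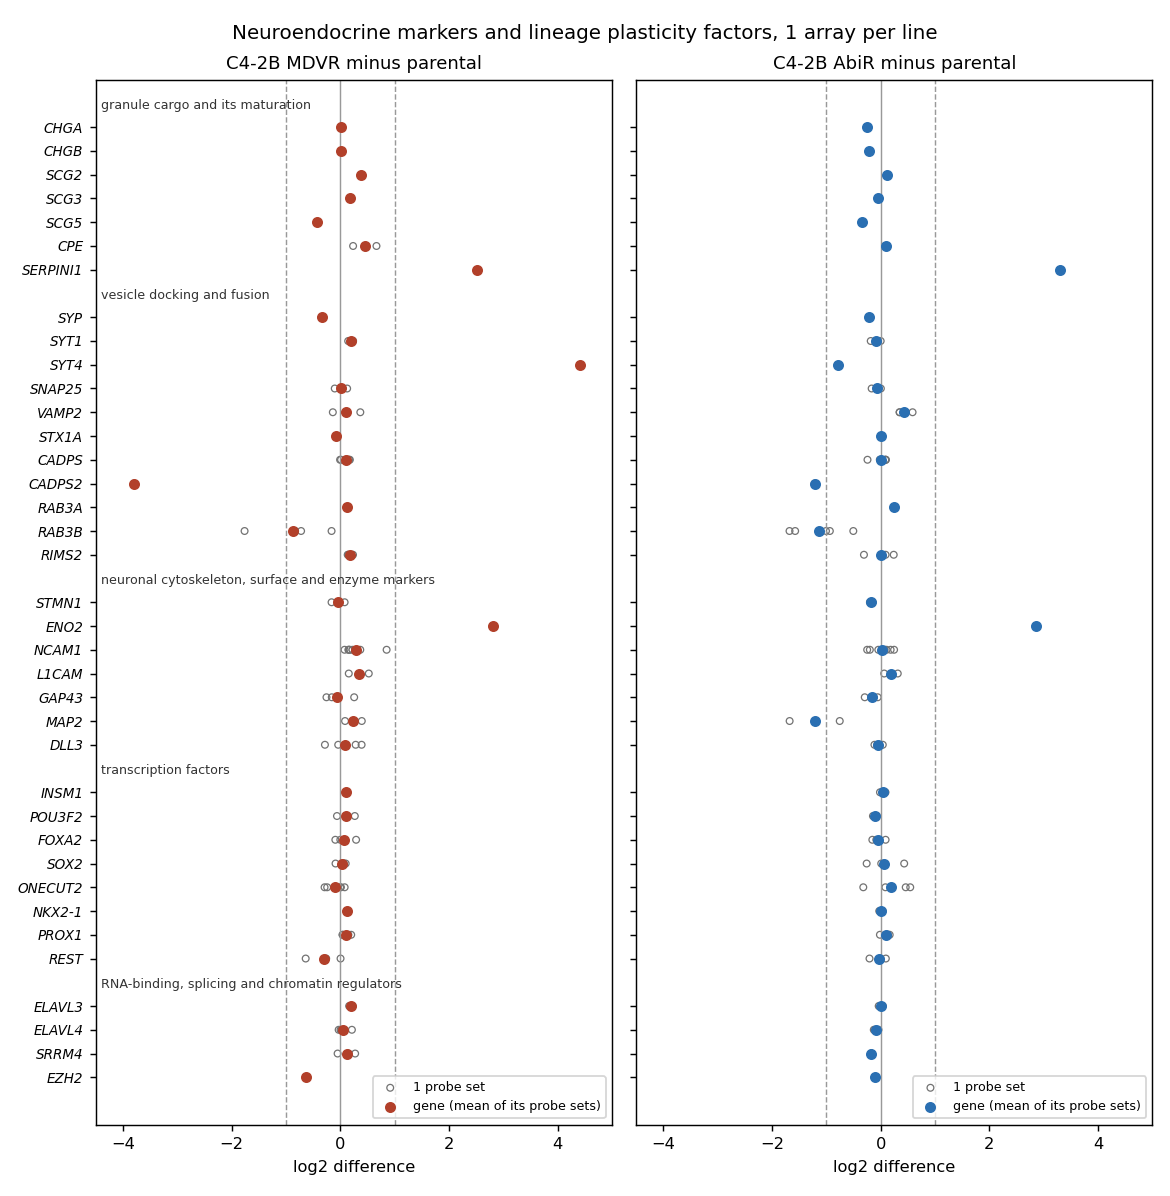
Log2 difference from the parental array of each measured member, with C4-2B MDVR on the left and C4-2B AbiR on the right. Filled points are genes (the mean of their probe sets), open points are single probe sets, and dashed lines mark 2-fold. In MDVR 3 genes lie right of the 2-fold lines and 1 left of them, in AbiR 2 and 3, and all transcription factors lie between them.

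The promoter sequences of members with the largest differences are shown because the granule genes are known to be controlled there by cAMP response elements and by RE1, the site that REST binds. RefSeq promoter windows (assembly GRCh38.p14, from 250 bases before to 50 after a gene's start) matched 26 of the 37 measured members, with 41 windows. CADPS2, CHGB, SCG2, SNAP25, RIMS2, NCAM1, DLL3, INSM1, FOXA2, PROX1 and ELAVL3 had no match, and MAP2, which had 3 windows, is not printed. Below are the 250 bases upstream of the start, 5′ to 3′ on the strand of the gene, with any searched motif in capitals. SYT4 lies at chr18:43277491-43277740 on the minus strand, SERPINI1 at chr3:167735471-167735720 on the plus strand, ENO2 at chr12:6914330-6914579 on the plus strand and RAB3B at chr1:51990701-51990950 on the minus strand. CHGA, at chr14:92922900-92923149 on the plus strand, is given as a classical marker that was within 2-fold of parental in both lines.
SYT4: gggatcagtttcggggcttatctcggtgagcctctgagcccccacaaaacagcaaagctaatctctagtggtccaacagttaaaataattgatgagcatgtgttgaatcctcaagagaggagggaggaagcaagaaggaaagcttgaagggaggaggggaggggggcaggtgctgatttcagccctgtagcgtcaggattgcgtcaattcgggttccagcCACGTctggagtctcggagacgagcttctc
SERPINI1: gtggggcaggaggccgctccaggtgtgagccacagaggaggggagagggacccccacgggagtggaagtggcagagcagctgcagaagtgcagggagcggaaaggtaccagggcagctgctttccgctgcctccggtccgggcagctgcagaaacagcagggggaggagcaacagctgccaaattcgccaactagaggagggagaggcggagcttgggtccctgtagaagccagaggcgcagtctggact
ENO2: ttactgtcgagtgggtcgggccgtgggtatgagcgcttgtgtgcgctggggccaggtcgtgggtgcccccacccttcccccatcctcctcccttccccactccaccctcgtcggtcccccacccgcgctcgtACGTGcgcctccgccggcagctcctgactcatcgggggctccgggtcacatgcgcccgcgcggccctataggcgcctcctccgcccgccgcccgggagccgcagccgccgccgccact
RAB3B: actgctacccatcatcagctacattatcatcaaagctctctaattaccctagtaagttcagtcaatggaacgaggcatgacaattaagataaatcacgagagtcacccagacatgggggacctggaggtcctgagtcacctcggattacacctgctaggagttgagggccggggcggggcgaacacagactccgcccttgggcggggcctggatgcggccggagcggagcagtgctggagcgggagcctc
CHGA: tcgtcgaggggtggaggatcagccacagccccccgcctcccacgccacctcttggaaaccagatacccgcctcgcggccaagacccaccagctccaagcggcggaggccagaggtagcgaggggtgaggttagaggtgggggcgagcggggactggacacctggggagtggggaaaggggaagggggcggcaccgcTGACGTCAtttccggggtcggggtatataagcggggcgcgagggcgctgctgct
The capitals in SYT4 are the core of the hypoxia response element, ACGTG, read on the other strand at position −30 from the start. ENO2 held the same core at position −118, and CHGA held a full cAMP response element, TGACGTCA, at position −54. SERPINI1 and RAB3B held none of the 6 motifs searched.

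The motifs were searched on both strands in all 35116 RefSeq windows, and none of them is contained in another. ACGTG was in 21.4% of all windows and in 11 of the 41 member windows. TGACGTCA was in 1.85% of all windows and in CHGA alone of the members. The left RE1 element TTCAGCACC was in 0.376% of all windows and the right element GGACAGC in 6.03%, and 1 and 5 member windows held them. The hexamer of androgen response elements, AGAACA, was in 14.8% of all windows and in 3 of the members', and the TATA box letters TATAAA in 11.5% and in none of the members'. Both RE1 elements on 1 strand, left before right and at most 12 bases apart, occurred in 13 windows (0.0370%). Of the members, SCG3 was the 1 with both. They lay at chr15:51681511-51681534 on the plus strand, 9 to 32 bases after the start, with the elements in capitals and 8 bases between them.
SCG3: TTCAGCACCcacagggcGGACAGC
The GC content of the upstream bases was 52.8% in SYT4, 56.8% in RAB3B, 64.8% in SERPINI1, 68.8% in CHGA and 74% in ENO2, beside a median of 58% over all windows. ENO2 had 30 CpG dinucleotides and CHGA 21, whereas SYT4 had 8, SERPINI1 9 and RAB3B 12, with a median of 11 over all windows. Among SYT4, SERPINI1, ENO2 and RAB3B, the upstream bases thus ran from CpG-poor to CpG-rich, and no searched motif was in all of them. CADPS2, which had no window, and MAP2 were not part of this comparison. A match of letters is a description and shows no binding.

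Granule cargo and its processing comprised 7 measured genes, and SERPINI1 was the 1 that passed 2-fold. Its centred log2 value was −0.39 in the MDVR array, 0.39 in AbiR and −2.91 in parental (1 probe set). Neuroserpin is made mainly by neurons, is sorted to secretory granules and inhibits tissue plasminogen activator. Both resistant arrays were far above parental, with log2 differences of 2.52 in MDVR and 3.30 in AbiR, the 35th and the 10th highest of 19775 genes. AbiR exceeded MDVR by less than 2-fold (MDVR minus AbiR −0.78).

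Of the 7 genes, 4 exceeded the largest spiked control in each line (57.1%, beside 23.0% of all genes in MDVR and 33.0% in AbiR). They were SCG2, SCG5, CPE and SERPINI1 in MDVR, and CHGA, CHGB, SCG5 and SERPINI1 in AbiR. The limit came from single probe sets, and all 7 genes but CPE were each read by a single probe set. These shares therefore depend on probe set number. The granins, the acidic proteins that form the core of dense-core granules, were all within 2-fold of parental. CHGA, chromogranin A, had centred values of 0.13 in MDVR, −0.14 in AbiR and 0.12 in parental, and its differences were 0.013 in MDVR and −0.26 in AbiR. CHGB, chromogranin B, differed from parental by 0.016 in MDVR and −0.21 in AbiR. Each of these AbiR values was beyond the largest spiked control, and neither MDVR value was. SCG2, secretogranin II, was 0.37 in MDVR and 0.12 in AbiR, and SCG3, which anchors granins to the granule membrane and carries the RE1-like letters above, was 0.18 in MDVR and −0.045 in AbiR. SCG5, the chaperone of a prohormone convertase, was lower in both arrays, at −0.44 in MDVR and −0.34 in AbiR, and was the 1 granin-family member beyond the spiked controls in both lines. Carboxypeptidase E, CPE, trims peptide hormones after cleavage. Its difference was 0.45 ± 0.30 in MDVR and 0.10 ± 0.027 in AbiR (n = 2), with both probe sets positive in each line. Of the 7 genes, 6 were positive in MDVR and 3 in AbiR, with medians of 0.18 in MDVR and −0.045 in AbiR. Over all genes, 57.4% were positive in MDVR and 47.4% in AbiR.

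Vesicle docking and fusion comprised 11 measured genes and held the widest spread of any group, between −3.80 and 4.41 in MDVR. SYT4 is a synaptotagmin, a membrane protein of dense-core vesicles. Its centred value was 4.80 in MDVR, −0.40 in AbiR and 0.40 in parental (1 probe set). MDVR thus stood apart from both other arrays, with a log2 difference of 4.41 from parental, the 7th highest of all genes. AbiR was lower than parental by −0.79, the 261st lowest. Its paralog SYT1, the fast calcium sensor of synaptic vesicles, differed by 0.19 ± 0.064 in MDVR and −0.092 ± 0.13 in AbiR (n = 2), so the difference of SYT4 was not shared by SYT1. By the mean over probe sets, other synaptotagmins outside the members also stayed within 2-fold in MDVR. SYT5 was 0.47 ± 0.032 (n = 2) and SYT13 0.80 ± 1.05 (n = 2) there. For SYT13 the SD was larger than the difference, and its probe sets were not all within 2-fold. In MDVR, SYT7 was 0.18 ± 0.18 (n = 5) and SYT11 −0.083 ± 0.18 (n = 3).

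CADPS2 had a centred value of −3.16 in MDVR, −0.57 in AbiR and 0.64 in parental (1 probe set). Both resistant arrays were below parental, MDVR by −3.80, the 8th lowest of all genes, and AbiR by −1.22, the 94th lowest. CADPS, its paralog with the same role in granule priming, is the form best known from adrenal chromaffin cells and neurons. CADPS differed by 0.094 ± 0.076 in MDVR and 0.0015 ± 0.13 in AbiR (n = 6), so the paralogs diverged.

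RAB3B, a small GTPase of secretory vesicles known to be expressed in prostate cancer cells, was below parental in both lines on all 5 of its probe sets. Its mean centred value was 0.13 in MDVR, −0.13 in AbiR and 1.004 in parental. The difference was −0.87 ± 0.57 in MDVR, with probe sets between −1.76 and −0.16, and −1.14 ± 0.49 in AbiR, with probe sets between −1.68 and −0.50. RAB3B thus passed 2-fold in AbiR and stopped short of it in MDVR, with wide disagreement in size between its probe sets and none in sign. RAB3A, the neuronal paralog, differed by 0.12 in MDVR and 0.25 in AbiR (1 probe set). The MDVR value was inside the largest spiked control, so its direction could not be read. The AbiR value was beyond the largest spiked control and opposite in sign to RAB3B.

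**Figure D2:**
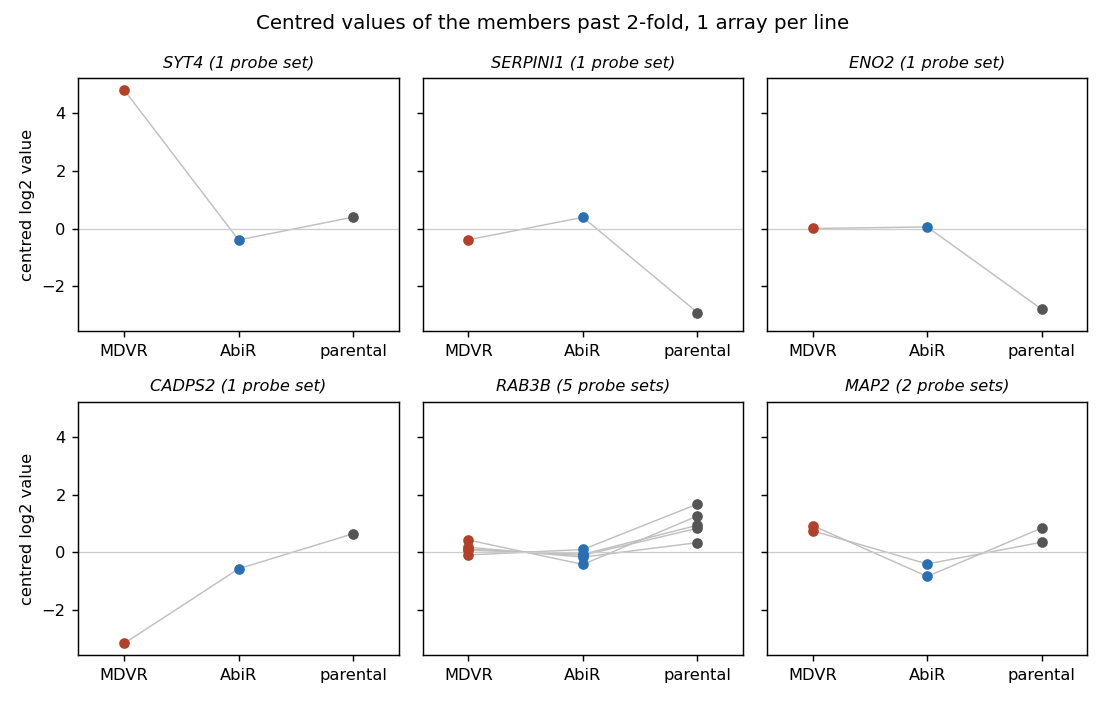
Centred log2 value on the MDVR, AbiR and parental arrays of the 6 members at least 2-fold from parental in either resistant line; each line joins the values of 1 probe set. SERPINI1 and ENO2 are low on the parental array alone, SYT4 is high on the MDVR array alone, CADPS2 is lowest on the MDVR array, RAB3B is highest on the parental array and MAP2 is lowest on the AbiR array.

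The core fusion machinery showed little difference. SNAP25, VAMP2 and STX1A encode the 3 SNARE proteins that pull vesicle and plasma membrane together. SNAP25 differed by 0.018 ± 0.12 in MDVR and −0.072 ± 0.086 in AbiR (n = 3), and STX1A by −0.076 in MDVR and 0.0076 in AbiR. VAMP2 was the exception, at 0.11 ± 0.25 in MDVR and 0.43 ± 0.14 in AbiR (n = 3), where all 3 of its probe sets were positive. SYP, synaptophysin, the vesicle membrane protein used as a tumour marker, was −0.35 in MDVR, inside the largest spiked control, and −0.21 in AbiR, barely beyond it. RIMS2, an active zone scaffold that binds RAB3, was 0.17 ± 0.053 in MDVR and 0.0075 ± 0.28 in AbiR (n = 3). Over the 18 granule and synaptic genes together, 2 were at least 2-fold higher and 1 lower in MDVR, and 1 higher and 2 lower in AbiR. The shares over all genes were 1.65% higher and 1.67% lower in MDVR, and 1.07% higher and 0.804% lower in AbiR.

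Neuronal cytoskeleton, surface and enzyme markers comprised 7 genes, with ENO2 the highest in both lines. ENO2 encodes gamma-enolase, a glycolytic enzyme of neurons and neuroendocrine cells. Its centred value was 0.0026 in MDVR, 0.055 in AbiR and −2.80 in parental (1 probe set). The resistant arrays were nearly level with each other (MDVR minus AbiR −0.053) and stood above parental by 2.80 in MDVR and 2.85 in AbiR, the 28th and the 16th highest of all genes.

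MAP2, a microtubule-associated protein of dendrites, had a mean centred value of 0.83 in MDVR, −0.62 in AbiR and 0.59 in parental. It was near parental in MDVR (0.24 ± 0.22) and lower in AbiR (−1.21 ± 0.65, n = 2). The 2 probe sets of MAP2 were 0.39 and 0.085 in MDVR, and −0.75 and −1.68 in AbiR, so 1 of them stayed within 2-fold. NCAM1, the neural cell adhesion molecule CD56, differed by 0.28 ± 0.27 in MDVR and 0.017 ± 0.19 in AbiR (n = 7). All 7 of its probe sets were positive in MDVR, the highest at 0.85, whereas 4 of 7 were in AbiR. L1CAM, another adhesion molecule of axons, was 0.34 ± 0.26 in MDVR and 0.19 ± 0.18 in AbiR (n = 2). GAP43, a growth cone protein, was −0.055 ± 0.27 in MDVR and −0.16 ± 0.12 in AbiR (n = 3), and the tubulin-binding protein STMN1 was −0.043 ± 0.17 in MDVR and −0.17 ± 0.035 in AbiR (n = 2). DLL3, an inhibitory Notch ligand carried on neuroendocrine tumours, was 0.086 ± 0.31 in MDVR and −0.044 ± 0.064 in AbiR (n = 4). Apart from ENO2 and MAP2, none of these genes differed by as much as 0.35 in either line.

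The transcription factors, taken apart from the granule and synaptic genes, showed no gene-level difference beyond the spiked controls. The 8 measured factors lay between −0.30 and 0.12 in MDVR and between −0.11 and 0.19 in AbiR. Their median absolute difference was 0.10 in MDVR and 0.055 in AbiR, beside 0.17 in MDVR and 0.13 in AbiR over all genes. None of the 8 exceeded the largest spiked control, beside 23.0% of all genes in MDVR and 33.0% in AbiR. That limit came from single probe sets, whereas each factor is a mean over 2 to 5, so these shares depend on probe set number. Single probe sets of the factors did pass it, such as 1 of REST at −0.64 in MDVR and 1 of ONECUT2 at 0.54 in AbiR. Of their 25 probe sets, 0 passed 2-fold in either line, beside shares over all single-gene probe sets of 1.80% higher and 2.57% lower in MDVR and 1.35% higher and 1.12% lower in AbiR. The activators of the neuroendocrine program were all near parental. INSM1, a zinc finger factor that marks neuroendocrine tumours, differed by 0.11 in MDVR and 0.038 in AbiR. POU3F2, the neural factor BRN2, differed by 0.10 ± 0.23 in MDVR and −0.11 ± 0.050 in AbiR (n = 2). ONECUT2 is a factor tied to androgen receptor-independent prostate cancer. It was −0.091 ± 0.17 in MDVR and 0.19 ± 0.34 in AbiR (n = 5), where 4 of 5 probe sets were positive and the highest reached 0.54.

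SOX2, a stem cell factor, differed by 0.030 ± 0.082 in MDVR and 0.062 ± 0.28 in AbiR (n = 4). The endoderm pioneer factor FOXA2 differed by 0.064 ± 0.20 in MDVR and −0.048 ± 0.13 in AbiR (n = 3), and the lung and thyroid factor NKX2-1 by 0.12 in MDVR and 0.0053 in AbiR (2 probe sets). PROX1, a homeobox factor of endocrine and neural progenitors, differed by 0.11 in MDVR and 0.10 in AbiR (4 probe sets). REST, the repressor of neuronal genes, was the lowest of the group in MDVR, at −0.30 ± 0.32 (n = 3). Its probe sets disagreed there, at 0.0020, −0.26 and −0.64, and in AbiR the mean was −0.037 ± 0.15. Centred values do not show whether any of these factors was expressed in the 3 lines.

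Regulators of RNA and chromatin comprised 4 genes. SRRM4, the neuronal splicing factor that makes a truncated form of REST, differed by 0.12 ± 0.16 in MDVR and −0.17 ± 0.0072 in AbiR (n = 3). The neuronal RNA-binding proteins ELAVL3 and ELAVL4 differed by 0.20 ± 0.034 and 0.050 ± 0.11 in MDVR, and by 0.0013 ± 0.038 and −0.090 ± 0.037 in AbiR. EZH2, the catalytic subunit of the polycomb repressive complex that methylates histone H3, had centred values of −0.55 in MDVR, −0.018 in AbiR and 0.089 in parental. It was lower in MDVR by −0.63, beyond any spiked control, and near parental in AbiR at −0.11 (1 probe set). The proliferation genes were also lower in MDVR, with 23 of 28 negative and a median of −0.28, where 8392 of all 19775 genes were negative. In AbiR, 24 of them were negative with a median of −0.23, where 10357 of all genes were negative. The part of the proliferation genes in the EZH2 value was not tested.

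Set against each other, the 2 resistant lines differed by at least 2-fold in 3 members. MAP2 and SYT4 were higher in MDVR than in AbiR, by 1.45 and 5.20, where 0.875% of all genes were at least 2-fold higher. CADPS2 was lower in MDVR by −2.59, where 1.13% of all genes were at least 2-fold lower. The comparisons with parental share the parental array, so a low or high value there enters both, as the plot of MDVR against AbiR differences shows for ENO2 and SERPINI1. For those 2 genes the MDVR and AbiR arrays were within 2-fold of each other.

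**Figure D3:**
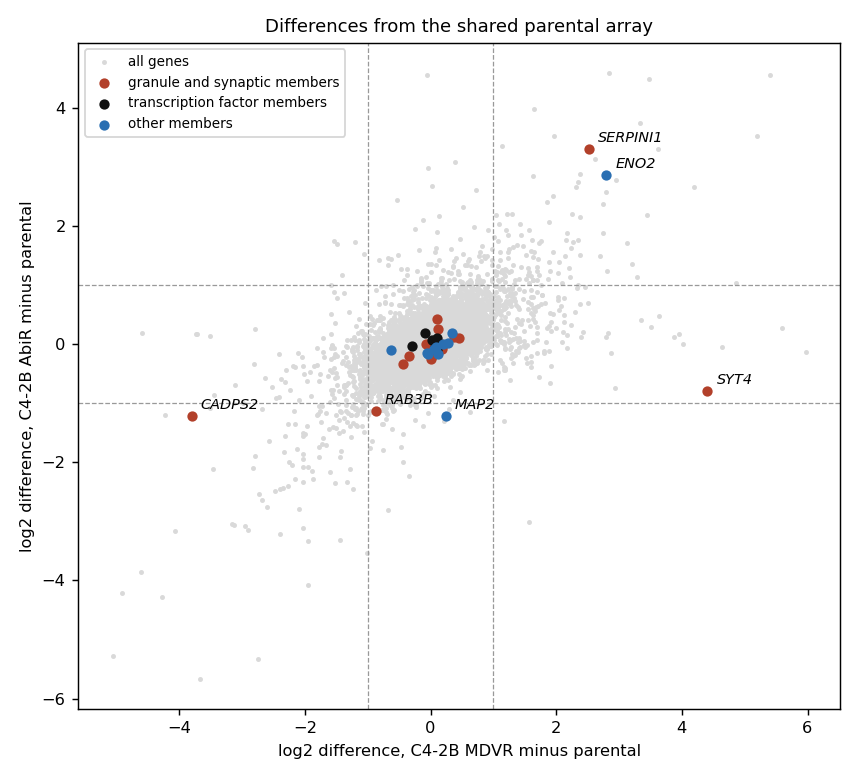
Log2 difference from the shared parental array in AbiR (vertical) against MDVR (horizontal), with all 19775 genes in grey and dashed lines at 2-fold. Transcription factor members (black) cluster at the centre, while SERPINI1, ENO2, SYT4, CADPS2, RAB3B and MAP2 are the members outside 2-fold in at least 1 line.

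The other genes of these pathways were taken from lists of known function. The background for their counts was the share of all genes past 2-fold. It was 1.65% higher and 1.67% lower in MDVR, and 1.07% higher and 0.804% lower in AbiR. Of 35 other genes of regulated secretion, 1 was at least 2-fold higher and 1 lower in each line. The list median was 0.11 for MDVR and 0.041 for AbiR. PCSK1N, which encodes the granule protein proSAAS, was higher by 1.28 in MDVR and 0.81 in AbiR. CPLX1, a complexin that clamps SNARE complexes, was higher by 0.88 in MDVR and 0.81 in AbiR. RIMS1, the paralog of RIMS2, was −0.67 ± 0.70 in MDVR and 1.46 ± 0.19 in AbiR (n = 3). STXBP5, tomosyn, an inhibitor of SNARE assembly, was −1.21 ± 0.57 in MDVR and −1.09 ± 0.36 in AbiR (n = 3). With 1 gene past 2-fold in each direction in each line, the list's shares could not be told from those of all genes. CPLX1 stayed within 2-fold in both lines. The median over all genes was 0.044 in MDVR and −0.011 in AbiR.

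Among 30 other neural and neuroendocrine transcription factors, 2 were at least 2-fold higher and 1 lower in MDVR, and 0 higher and 1 lower in AbiR. NKX2-2, a factor of endocrine and neural progenitors, was 1.17 in MDVR and −0.44 in AbiR, and the zinc finger factor ZIC2 1.07 in MDVR and −0.47 in AbiR. HES6, a cofactor of neurogenesis also known in prostate cancer, was −1.12 in MDVR and −0.80 in AbiR. SOX4 was 0.30 ± 0.12 in MDVR and −1.09 ± 0.98 in AbiR (n = 6), with a wide spread between probe sets. The 15 corepressors of REST held no gene past 2-fold in either line, with medians of 0.16 in MDVR and 0.025 in AbiR. RCOR1, which bridges REST to the demethylase KDM1A, differed by −0.037 ± 0.58 in MDVR and 0.11 ± 0.0061 in AbiR (n = 2), and KDM1A by 0.34 in MDVR and −0.24 in AbiR. CTDSP2, a small phosphatase recruited by REST, was the highest of them in MDVR at 0.48 ± 0.44 (n = 2).

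Of 17 other polycomb and DNA methylation genes, 0 passed 2-fold in either line. EED, which binds EZH2 in the same complex, was −0.86 ± 0.89 in MDVR and −0.30 ± 0.26 in AbiR (n = 2), and the paralog EZH1 was 0.13 ± 0.38 in MDVR and 0.19 ± 0.42 in AbiR (n = 5). The polycomb gene CBX7 was 0.71 in MDVR and 0.63 in AbiR, and the maintenance methylation cofactor UHRF1 −0.56 in MDVR and −0.44 in AbiR. Of 17 other neuronal RNA-binding genes, NOVA1 was the 1 at least 2-fold lower in MDVR (−1.04 ± 1.25, n = 3) and KHDRBS3 the 1 at least 2-fold higher in AbiR (1.24 ± 1.001, n = 2). In both cases the SD between probe sets was about as large as the difference. ELAVL1 and ELAVL2, paralogs of the members ELAVL3 and ELAVL4, were −0.68 ± 0.66 and −0.49 ± 0.63 in MDVR, and −0.28 ± 0.13 and −0.39 ± 0.47 in AbiR. The 22 Notch pathway genes held 0 past 2-fold, with NOTCH3 highest at 0.94 ± 0.70 in MDVR and 0.73 ± 0.76 in AbiR (n = 2). The 12 suppressors and drivers tied to lineage plasticity also held 0, with medians of −0.16 in MDVR and −0.15 in AbiR, and RB1, the retinoblastoma suppressor, was −0.56 ± 0.44 in MDVR and −0.24 ± 0.10 in AbiR (n = 2).

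**Figure D4:**
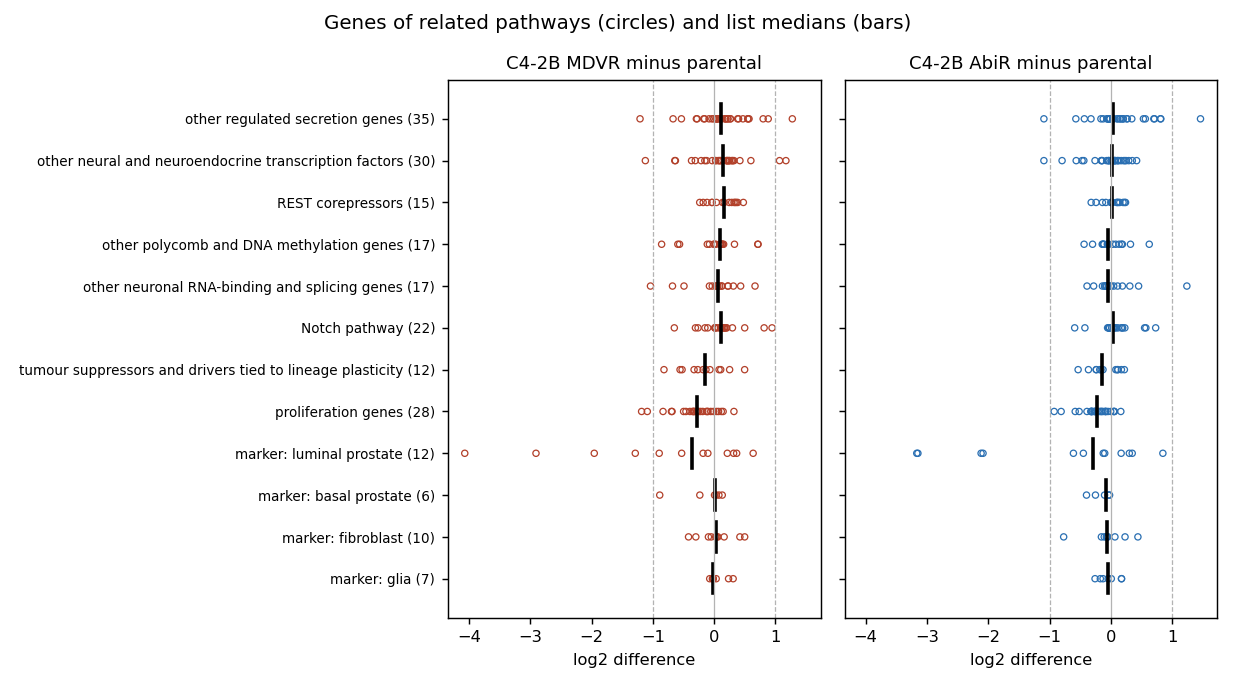
Log2 differences from parental of the genes in 12 related lists, with MDVR on the left and AbiR on the right. Each circle is 1 gene, each bar the list median, the number of measured genes stands in parentheses, and dashed lines mark 2-fold. The luminal prostate list extends furthest to the left in both lines and most other circles lie inside 2-fold.

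Luminal and other cell type markers moved beside these genes as follows. Of 12 luminal prostate markers, 4 were at least 2-fold lower and 0 higher in each line. The 4 were KLK3, KLK2, SLC45A3 and FKBP5 in both lines, and 4 of the 12 markers were positive in each line. Across all genes, 57.4% were positive in MDVR and 47.4% in AbiR. KLK3, which encodes prostate-specific antigen, was −4.07 ± 3.23 in MDVR and −3.17 ± 2.36 in AbiR (n = 3), with wide disagreement between its probe sets. SLC45A3, prostein, was −2.91 ± 0.72 in MDVR and −3.15 ± 0.35 in AbiR (n = 2). KLK2 was −1.29 ± 1.19 in MDVR and −2.12 ± 1.93 in AbiR (n = 4), with SDs nearly as large as the differences. FKBP5 was −1.96 ± 0.14 in MDVR and −2.09 ± 0.14 in AbiR (n = 3). ACP3, prostatic acid phosphatase, was instead the highest of the list, at 0.64 ± 0.37 in MDVR and 0.85 ± 0.69 in AbiR (n = 3). The luminal keratins stayed within 2-fold, with KRT8 at 0.32 in MDVR and 0.30 in AbiR and KRT18 at −0.10 in both. Markers of basal prostate cells (6 genes), fibroblasts (10 genes) and glia (7 genes), the other cell types considered, held 0 genes past 2-fold in either line. Their medians lay between −0.014 and 0.034 in MDVR and between −0.072 and −0.045 in AbiR. Whether any part of the members' differences goes with the 4 lower luminal markers, with proliferation or with other cell types was not tested.

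The neighbours of the 6 members past 2-fold were chosen by position after the values were seen. Ordered by start position alone, so that some may overlap the member, 3 measured genes on each side were compared. Of these 36 genes, 2 were at least 2-fold higher and 2 lower in MDVR, and 1 higher and 1 lower in AbiR. Across all genes, 1.65% were higher and 1.67% lower in MDVR, and 1.07% higher and 0.804% lower in AbiR. Beside SYT4, RIT2 was 1.17 in MDVR and −0.39 in AbiR, and SETBP1 on the other side was −1.70 in MDVR and −0.21 in AbiR. Next to ENO2, the flanking genes LRRC23 and ATN1 were 0.63 and 0.19 in MDVR, and 0.38 and 0.054 in AbiR, while PTPN6 was 1.25 in MDVR and 0.73 in AbiR. The gene next to SERPINI1 in the opposite orientation, PDCD10, was 0.035 in MDVR and −0.10 in AbiR, and GOLIM4 on its other side was 0.87 in MDVR and 0.38 in AbiR. MECOM, beyond GOLIM4, was 0.30 in MDVR and 1.08 in AbiR. By start position AASS and RNF133 came next to CADPS2, at −0.19 and 0.093 in MDVR, and −0.059 and −0.16 in AbiR. Around RAB3B, NRDC and TXNDC12 were −0.29 and 0.013 in MDVR, and 0.30 and −0.46 in AbiR. Beside MAP2, PTH2R and UNC80 were −0.31 and 0.063 in MDVR, and 0.13 and −0.053 in AbiR, and KANSL1L, the third gene after MAP2, was −1.03 in MDVR and −1.02 in AbiR.

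**Figure D5:**
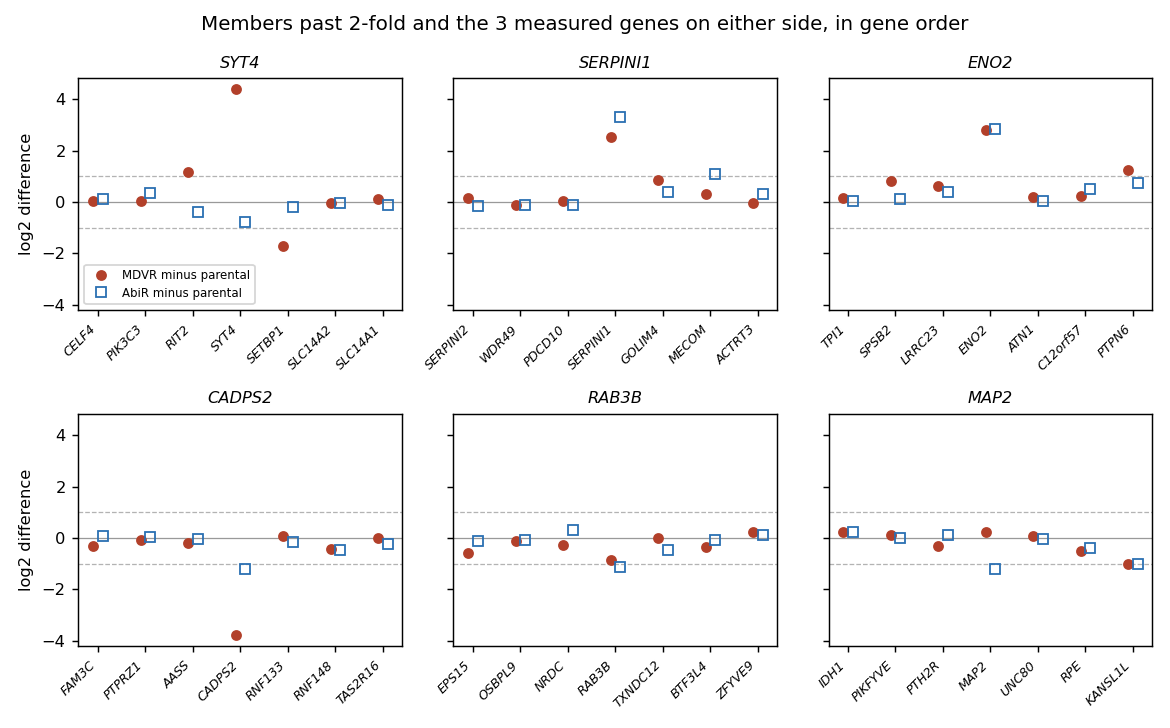
Log2 difference from parental in MDVR (filled circles) and AbiR (open squares) of the 6 members past 2-fold and their neighbours. The 3 measured genes on either side are in order of start position, and dashed lines mark 2-fold. The members were selected for their difference and their neighbours by position, and among the neighbours RIT2, SETBP1, PTPN6, KANSL1L and MECOM lie beyond 2-fold in at least 1 line.

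The 31 members inside 2-fold in both lines were selected by that limit, which bounds their range. They lay between −0.63 and 0.45 in MDVR and between −0.34 and 0.43 in AbiR, with 23 positive in MDVR and 15 in AbiR. Over all members, 27 of 37 (73.0%) were positive in MDVR, beside 57.4% of all genes, and 17 (45.9%) in AbiR, beside 47.4%. Small positive values in MDVR were therefore common among the members and across the array. By probe set, 3 of the 92 read for the members were at least 2-fold higher and 2 lower in MDVR, and 2 were higher and 5 lower in AbiR. The background over all 41097 single-gene probe sets was 1.80% higher and 2.57% lower in MDVR, and 1.35% higher and 1.12% lower in AbiR. The 5 lower in AbiR comprised 3 of RAB3B, 1 of MAP2 and 1 of CADPS2. SYT4, SERPINI1, ENO2 and CADPS2 each rest on 1 probe set, so their differences have no second reading on the array.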

How the data were processed

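Total RNA from C4-2B MDVR, C4-2B AbiR and C4-2B parental cells was hybridized to 1 HG-U133 Plus 2.0 array each. The authors deposited log2 values for 54675 probe sets, made with RMA according to the submitters' processing notes (version not given in the sources used here), which removes background, equalizes the arrays and combines the probes of a probe set. These deposited values had also been centred per probe set: 100% of probe sets fitted, to within 2e-06, a median of 4 arrays set to 0, and 1.66% a median of these 3, so 1 array not analysed here appears to have entered the centring. Levels and any choice resting on them were lost.

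Gene names came from the array annotation, updated by gene ID through RefSeq (GRCh38.p14; 99.9% matched). Of the probe sets, 41097 had 1 gene and 1801 several. A gene's value was the mean of the probe sets annotated to it alone, 92 of them for the members, and differences were taken between arrays (Python 3.11.15, pandas 2.3.3, numpy 2.4.6, matplotlib 3.10.9). The counting of 2-fold differences was tested on simulated data. Groups came from the sample labels. No test was possible with 1 array per group, and the number of arrays limits the precision.

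All members were named. From the 12 related lists (228 genes, 211 measured), the genes named were taken from the 2 highest and 2 lowest in each line, paralogs of members and REST corepressors. Of the luminal list, the other genes past 2-fold and 2 keratins were named as well. Members and lists were chosen with earlier results of these data known. The 5 alternatives were the median over probe sets, leaving out probe sets with suffix _s, _x or _a, adding probe sets of several genes, and centring arrays on their median or on hybridization controls.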

Additional observations from a re-analysis of the deposited data

Results flagged for a closer look

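SYT4 was the member whose differences ran in opposite directions in the resistant lines, each larger than any spiked control of its comparison. The log2 difference was 4.41 in MDVR and −0.79 in AbiR. The difference between the lines was not tested, both values share the parental array, and both come from 1 probe set.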

How the results depend on the processing

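The 6 counts of members at least 2-fold higher or lower gave the same number and the same named members under all 5 alternatives, 30 values in all. Of 354 member differences recomputed, 334 moved by less than 1 SD between the gene's own probe sets (of the spiked controls, where it had 1 probe set), 20 moved further and 0 of the 2-fold differences changed sign. That SD was very small for some genes and large for others. By the SD of the spiked controls instead, 11 of the 354 moved further, 2 of them among the 20. Of the 20, 16 came from centring arrays on hybridization controls, which set the median over all genes at −0.022 in MDVR and −0.10 in AbiR, 2 from centring on the array median and 2 from leaving out probe sets with suffix _s, _x or _a. The suffix setting, which covered 29 members, gave VAMP2 0.59 in AbiR and REST −0.64 in MDVR, each from the 1 probe set that remained. Under hybridization control centring the AbiR difference was −0.053 for INSM1, −0.086 for NKX2-1 and −0.090 for ELAVL3, so the signs of such small values depend on the scaling. No paired analysis was possible because each line had 1 array. Levels, replicate error and the drug's own part in any difference could not be measured, and 13 members rest on 1 probe set.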
